A study of Drosophila melanogaster with 2 samples.

Results

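The nuclear genes of the oxidative phosphorylation machinery were examined for regions bound by the CG42726-eGFP fusion protein in Drosophila melanogaster embryos. Members were the nuclear protein-coding genes of the Ensembl annotation (release 115) whose symbol starts with ND-, Sdh, UQCR-, ATPsyn, or COX and a digit, together with Cyt-c1 and RFeSP. The rule used no measured value and gave 90 genes of 13968 nuclear protein-coding genes. Chromatin immunoprecipitation and sequencing had been done with an antibody against GFP on whole embryos aged 0 to 24 hours, in 1 group of 2 biological replicates. All embryos carried the tagged CG42726 transgene, the labels do not name the promoter that drives it, and the samples given here hold no other strain or treatment. The deposited files list called regions with a signal for each and hold no read counts, so the depth behind each value is unknown. No control immunoprecipitation was analysed here.

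Oxidative phosphorylation is carried out by large complexes of the inner mitochondrial membrane. Complexes I and II pass electrons from NADH and succinate to ubiquinone, complex III passes them on to cytochrome c, complex IV hands them to oxygen, and complex V, the ATP synthase, makes ATP from the proton gradient. A few subunits are encoded by mitochondrial DNA and the rest by nuclear genes scattered over the chromosomes. Drosophila also carries duplicated copies of several subunit genes, named with a final L, and many such duplicates are known for expression in the testis.

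A summit is the base at which a called region has its peak, and a member had one when it was found at most 1 kb from an annotated start of the gene. To show what lay at the summits, the 101 bases centred on the summit are given for 7 members, from the RefSeq Release 6 assembly (the dm6 build), read 5′ to 3′ on the strand of the member. Capitals mark CGATA on either strand (TATCG on the printed strand when reversed), the DRE TATCGATA, and GGTCACAC, the core of Motif 1 of Drosophila core promoters, on either strand. The first 4 hold CGATA, COX4 holds both CGATA and the Motif 1 core, UQCR-Q holds only the Motif 1 core, and ND-13B holds none of these. They are the windows of chrX:16286235-16286335 for UQCR-14, chrX:19744339-19744439 for COX6B, chrX:2172439-2172539 for ND-B14.5A, chr3R:8341023-8341123 for COX7A, chr2L:19958623-19958723 for COX4, chr3L:17474991-17475091 for UQCR-Q and chr3L:10694047-10694147 for ND-13B.
UQCR-14: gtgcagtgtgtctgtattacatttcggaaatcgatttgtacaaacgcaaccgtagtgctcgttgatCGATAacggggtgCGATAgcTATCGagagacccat
COX6B: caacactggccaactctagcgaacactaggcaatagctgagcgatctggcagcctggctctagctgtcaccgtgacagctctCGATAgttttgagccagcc
ND-B14.5A: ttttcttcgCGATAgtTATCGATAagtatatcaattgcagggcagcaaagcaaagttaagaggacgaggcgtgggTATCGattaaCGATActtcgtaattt
COX7A: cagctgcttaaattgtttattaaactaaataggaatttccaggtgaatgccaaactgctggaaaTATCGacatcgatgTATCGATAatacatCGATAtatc
COX4: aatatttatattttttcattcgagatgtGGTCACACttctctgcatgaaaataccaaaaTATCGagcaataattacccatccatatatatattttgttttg
UQCR-Q: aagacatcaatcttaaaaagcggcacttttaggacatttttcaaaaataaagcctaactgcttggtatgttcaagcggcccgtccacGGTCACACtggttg
ND-13B: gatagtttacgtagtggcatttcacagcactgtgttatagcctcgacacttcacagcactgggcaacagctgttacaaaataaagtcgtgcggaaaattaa

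In the thresholded list of regions found reproducibly in both biological replicates, by a limit on the irreproducible discovery rate (IDR), 27 of 90 members had a summit (30%, exact Clopper-Pearson 95% interval 20.8 to 40.6). Of all nuclear protein-coding genes, 20.5% had one by the same count. The members fall into 65 subunits without an L paralogue suffix, 20 L paralogues of other members, 4 further L-suffixed genes (COX6AL, COX6AL2, COX6CL and ATPsynepsilonL) named after genes outside the rule, and the assembly factor Sdhaf3. All 27 members with a summit were among the 65 subunits (41.5%, 29.4 to 54.4), and 0 were among the L paralogues and the other L-suffixed genes, nor did Sdhaf3 have one. The counts rest on genes that can share a region with a neighbour, and the intervals cover counting error only.

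The share of members was above that of all coding genes in each list. Replicate 1 alone gave 29 members (32.2%, exact interval 22.8 to 42.9, against 21.9% of all coding genes). Replicate 2 alone gave 17 (18.9%, 11.4 to 28.5, against 12.7%). The regions called on the pooled reads gave 33 members (36.7%, 26.8 to 47.5, against 27.3%). The intervals of replicate 2 and of the pooled reads held the share of all coding genes. In all, 15 members had a summit in each of the 4 thresholded lists, 35 had one in at least 1 list, and 55 had none in any. When each summit counted only for the gene with the nearest start, 18 members had one (20%, against 14.6% of all coding genes). With the most upstream start only, 27 members had one (30%, against 19.4%). At an IDR of 0.05 in the ranked list, which holds all candidate regions with their IDR, 41 members did (45.6%, against 31.4%), and at 0.01 there 29 did (32.2%, against 21.2%). With regions above the median signal 15 members did (16.7%, against 12%).

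**Figure D1:**
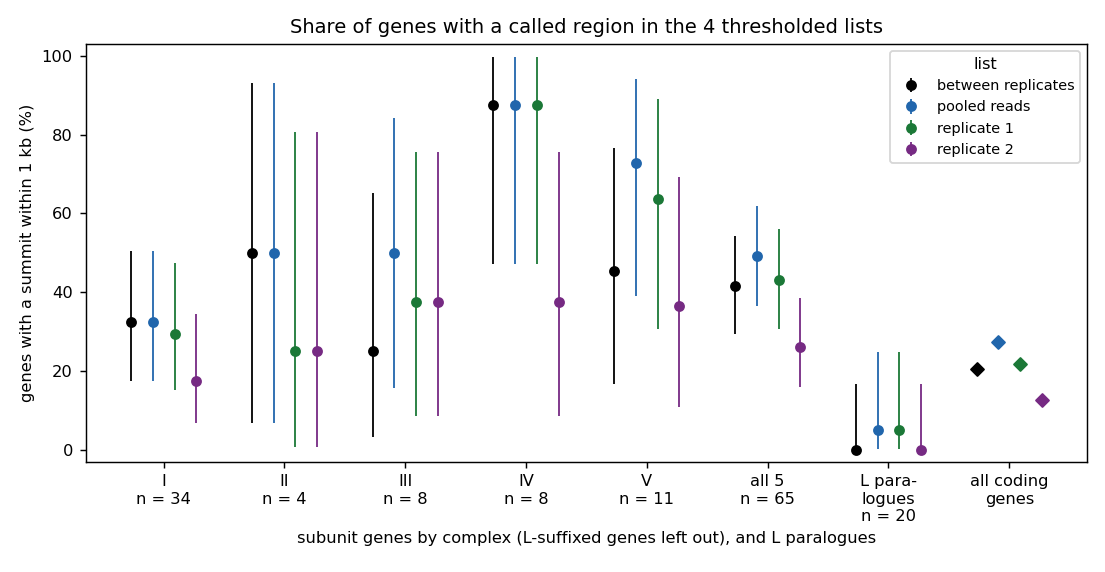
Percentage of genes with a summit within 1 kb of a start in each of the 4 thresholded lists (colours), for subunits without an L suffix by complex, for the L paralogues and, as diamonds, for all coding genes. Lines are exact 95% intervals over genes. Complex IV stands at 87.5% in the list between replicates and at 37.5% in that of replicate 2, and the L paralogues stand between 0% and 5%.

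Complex IV, cytochrome c oxidase, had a summit at 7 of its 8 subunits without an L suffix (87.5%, exact interval 47.3 to 99.7) and at 7 of its 16 members in all (43.8%, 19.8 to 70.1), the highest share of the 5 complexes in this list. The share of all coding genes was 20.5%. COX6B, a subunit on the side of the intermembrane space, had the highest signal of all members at 414, with 276 in the list of replicate 1 and 138 in that of replicate 2. Its region, at chrX:19744297-19744492, ranked 57 of 2752. COX7A had 168, with 129 in replicate 1 and 33.2 in replicate 2. The other accessory subunits with a summit were COX8 (133), COX7C (131), COX4 (122), COX7B (107) and COX5B (84.1). COX5A was the complex IV subunit without one, and its nearest summit lay 2924 bp away.

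This count depended on how regions were given to genes. Of the 7 strongest regions, 5 lay nearer to the start of another gene, and with each summit given only to its nearest start 2 of 16 complex IV members remained, COX8 and COX4. That share of 12.5% was below the 14.6% of all coding genes and the lowest of the 5 complexes, against 20% of complex I, 25% of complex II, 18.2% of complex III and 26.7% of complex V members. Replicate 2 alone gave 3 complex IV members, COX6B, COX8 and COX7C, and replicate 1 alone gave 7. In replicate 2 that is 3 of the 8 subunits without an L suffix, the same share as in complex III (37.5%).

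In complex V, the ATP synthase, 5 of 11 subunits without an L suffix had a summit (45.5%, 16.7 to 76.6). ATPsynF, a subunit of the membrane part, had a signal of 319, with 185 in replicate 1 and 127 in replicate 2, at chr2R:24599818-24599934. ATPsynCF6, of the peripheral stalk, had 206, with 148 in replicate 1 and 61.0 in replicate 2. Among the rest, ATPsynD had 99.0, ATPsynB had 92.2 and ATPsynE had 59.9. By part of the enzyme, 3 of 4 genes of the peripheral stalk had a summit, ATPsynB, ATPsynD and ATPsynCF6 (exact interval 19.4 to 99.4%). In the membrane part 2 of 4 genes did, ATPsynE and ATPsynF (6.76 to 93.2%). Of the 3 members of the F1 part, ATPsynbeta, ATPsyngamma and ATPsyndelta, 0 did (0 to 70.8%). Each of these intervals held the 20.5% of all coding genes, so no part is told apart from all coding genes by these counts. Differences between the parts were not tested. The symbol rule leaves out other F1 genes, and one of them, blw for the alpha subunit, had a summit with a signal of 96.9. ATPsynbeta, the catalytic subunit, is on chromosome 4 and had a region only in the lists of the pooled reads (113, at -3 from its start) and of replicate 1. ATPsyngamma and ATPsynO, the stalk subunit also called OSCP, were likewise called in the pooled list, at 61.0 and 62.4, so that the pooled list held 8 complex V members.

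In complex III, the cytochrome bc1 complex, 2 of 8 subunits without an L suffix had a summit (25%, 3.19 to 65.1). This is near the 20.5% of all coding genes, which the interval held. UQCR-14 had a signal of 346 at 3 bp upstream of its start, with 216 in replicate 1 and 123 in replicate 2. UQCR-Q had 98.6 at 8 bp upstream, with 54.3 and 51.0. RFeSP, which encodes the Rieske iron-sulfur protein, was called in the pooled list at 63.7 and in replicate 2 at 45.3, and UQCR-C2, a core protein of the complex, was called in the pooled list at 78.3 and in replicate 1 at 60.1. Cyt-c1, the cytochrome c1 subunit, had no summit in any thresholded list.

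In complex I, NADH dehydrogenase, 11 of 34 subunits without an L suffix had a summit (32.4%, 17.4 to 50.5), against 20.5% of all coding genes. Of the 7 nuclear core subunits, which have counterparts in the bacterial enzyme, 2 had one (28.6%, 3.67 to 71), ND-24 (121) and ND-30 (79.7). Of the 27 accessory subunits 9 did (33.3%, 16.5 to 54). Each of these intervals held the share of all coding genes. Among the accessory subunits the highest signals were at ND-B14.5B (173), ND-13B (151), ND-B8 (147), ND-B14.5A (146) and ND-SGDH (139). ND-PDSW (90.7), ND-B15 (79.2), ND-13A (70.9) and ND-B17 (29.3) followed. ND-15 was called only in the pooled list, at 125, and in replicate 1, at 94.0, and ND-19 only in replicate 1, at 42.9.

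Complex II, succinate dehydrogenase, had a summit at SdhC, a membrane anchor (91.7), and at SdhB, the iron-sulfur subunit (54.6), out of 4 subunits. That share of 50% had an exact interval of 6.76 to 93.2, which held the 20.5% of all coding genes. The flavoprotein gene SdhA and the other anchor SdhD had none in the list between the biological replicates.

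**Figure D2:**
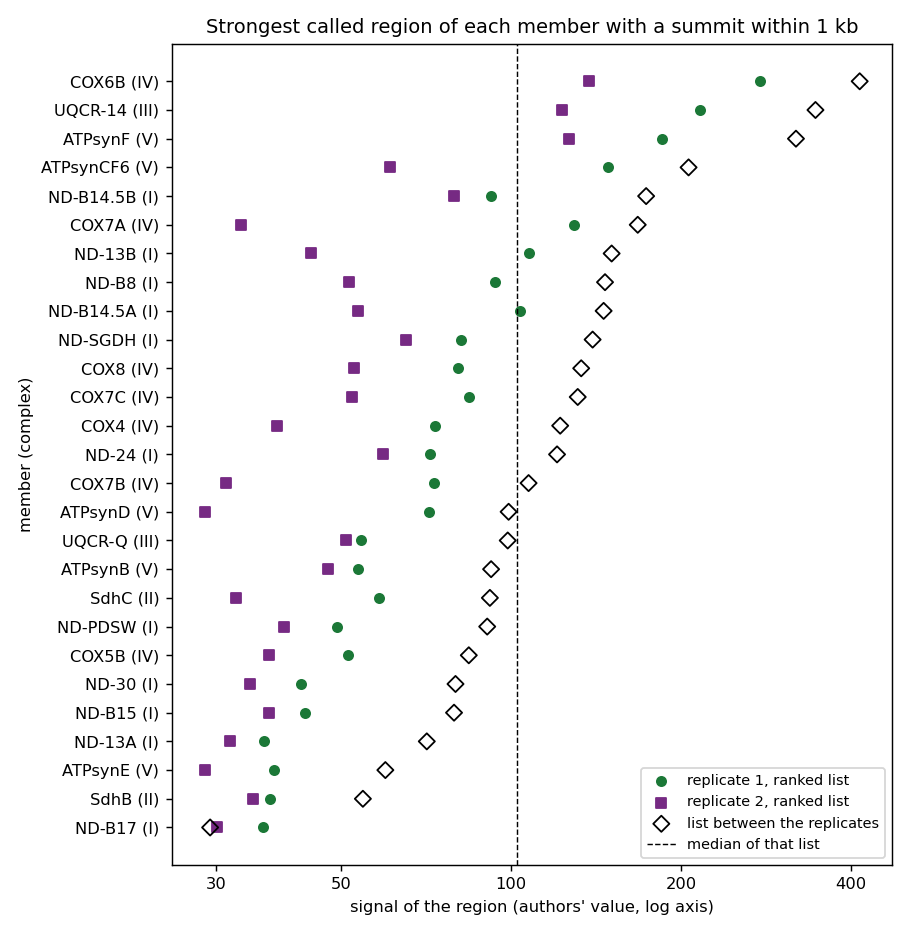
Signal of the strongest region within 1 kb of a start of each of the 27 members with a summit, with the strongest overlapping region in the ranked list of each replicate, on a log axis. Diamonds are the list between the replicates, circles replicate 1, squares replicate 2, and the dashed line is the median of all regions of the list between the replicates (102). The value of replicate 1 was above that of replicate 2 for 27 of 27 members, from COX6B (276 and 138) down to ND-B17 (36.3 and 30.1).

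The strongest regions of the 27 members were 27 distinct regions with a median signal of 121, against 102 for all regions of the list, a ratio of 1.18. The ratio was 0.893 with the nearest start only and 0.884 in replicate 2 alone, so the members' regions did not stand above the list under every setting. Of the 27 regions 15 lay above that median and 12 at or below it. The list holds every region at any distance from a start, while a member's value is its strongest within 1 kb, so the measures are not alike. In the ranked list between replicates, the strongest region within 1 kb had a median of 121 for these members. For all coding genes with a summit it was 114. The region passed the thresholded list of both replicates alone for 14 members, of replicate 1 only for 8, of replicate 2 only for 1 (SdhB) and of neither for 4 (ND-30, ND-13A, ATPsynE and ND-B17). In the ranked lists, which also hold regions that did not pass, the signal was higher in replicate 1 for all 27, as it was for 76.3% of the 2728 regions of the list with a value in both. The replicates are on scales that were not matched.

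Most of these strongest regions lay close to a start. Their summit was within 50 bp of the member's start for 11, within 100 bp for 15 and within 500 bp for 24, with 17 upstream and 10 downstream, and the median distance was 64 bp. The member's own start was the nearest annotated start for 16, among them UQCR-14, ATPsynCF6, ND-13B, ND-B14.5A, COX8, COX4 and UQCR-Q. Another gene's start was nearer for 11, including COX6B (Rpp20 and CG33932 at 42 bp, against 54 bp), ATPsynF (CG3548 at 62 bp, against 64 bp) and COX7A (Arl2 at 27 bp, against 30 bp). At ND-B14.5B and ATPsynD the summits lay 843 bp and 801 bp from the member, and 92 bp from toc and 71 bp from cdi. UQCR-14, ATPsynD and SdhC each had 2 regions, and the weaker one was nearer to ATPsynD and SdhC, at 29 bp and 344 bp. Taking the nearest summit of each member, the median distance was 54 bp. The region of ND-30 was 852 bp downstream of its start, the farthest of these. Just outside the window the nearest summits lay 1326 bp from UQCR-6.4L, 1418 bp from ND-B22 and 1658 bp from UQCR-C2. By chromosome, summits were found at 7 of 17 members on 2L, 4 of 17 on 2R, 7 of 21 on 3L, 5 of 20 on 3R, 0 of 2 on chromosome 4 and 4 of 13 on X. The share of all coding genes on each chromosome was not counted, so no difference between chromosomes is read from these counts.

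**Figure D3:**
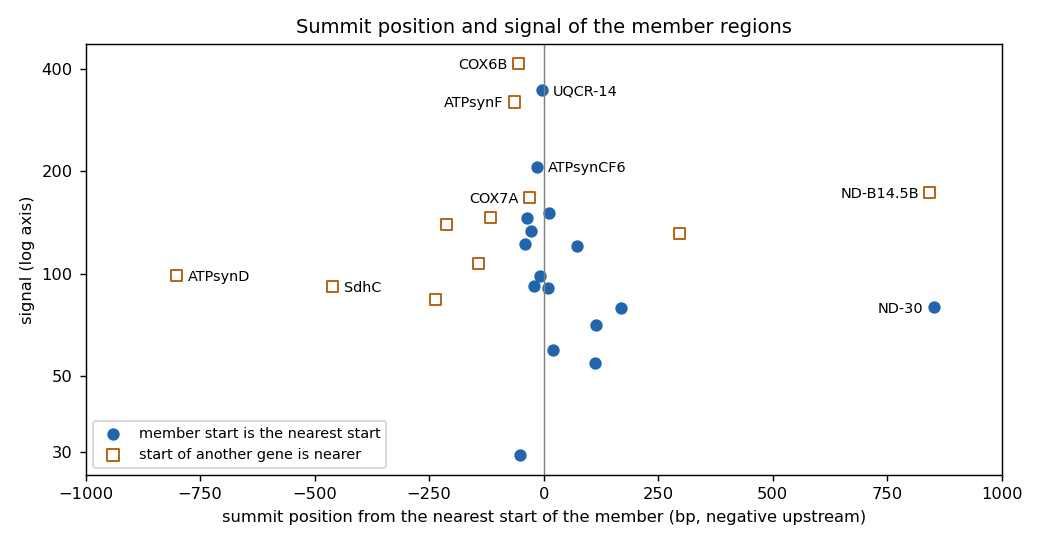
Signal (log axis) of the strongest region of each member with a summit against its distance from the member's nearest start in bp, negative upstream. Circles mark the 16 members whose own start is nearest, squares mark the 11 whose region is nearer to another gene. Most points sit within 250 bp, and ND-B14.5B, ND-30 and ATPsynD lie beyond 500 bp.

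Many of these genes start close to a divergent neighbour. A divergent coding start lay within 500 bp upstream of 36 of 65 subunits (55.4%), of 2 of 20 L paralogues (10%) and of 27.3% of all coding genes. Among genes with such a start 16 of 36 subunits had a summit (44.4%), against 33.5% of all coding genes with one. Among genes without it 11 of 29 subunits did (37.9%), against 15.6% of the corresponding coding genes. Of the L paralogues, 18 had no such start and 0 of these had a summit, beside the same 15.6%. The share of subunits was above that of all coding genes in both classes, and the part of neighbouring starts in this was not tested.

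The letters at the summits were counted on both strands as a description. The reference at the summits was all regions of the list, at any distance from a start, while member regions lay within 1 kb of one. The 2 sets are therefore not alike in position. CGATA was in 15 of 27 member summit windows (55.6%), against 42.6% of all regions of the list, with 3 copies at UQCR-14, 4 at COX7A and 5 at ND-B14.5A. The DRE, which contains CGATA on both strands, was in 3 of 27 (11.1%), against 12.6%. The Motif 1 core was in 4 of 27 (14.8%), against 4.51%, and the E-box CAGCTG in 5 of 27 (18.5%), against 7.24%. In promoters of 250 bases before to 50 after the most upstream start, the Motif 1 core was found at 16 of 65 subunits (24.6%), at 1 of 20 L paralogues (5%) and at 7.7% of all coding genes. The DRE was found at 9 of 65 subunits (13.8%), at 0 of 20 L paralogues and at 9.36% of all coding genes. Among genes with a summit the DRE was in 18.5% of member promoters, below the 22.5% of all such coding genes. The Motif 1 core was in 29.6% of these member promoters, against 12.8%. Among subunits without a summit, the Motif 1 core was in 21.1%, the DRE in 10.5% and CGATA in 55.3%. The shares of all coding genes without a summit were 6.38%, 5.96% and 42.2%. CAGCTG was found at 19 of 65 subunits (29.2%), at 2 of 20 L paralogues (10%) and at 17.7% of all coding genes, and TATAAA at 40 of 65 (61.5%), 9 of 20 (45%) and 45.9%. CAGCTG was in 29.6% of subunits with a summit and 28.9% of those without, against 19.5% of all coding genes with a summit. CGATA was found at 37 of 65 subunits (56.9%), at 8 of 20 L paralogues (40%) and at 47.4% of all coding genes. Among genes with a summit it was in 16 of 27 member promoters (59.3%), below the 67.5% of all such coding genes. The order at the summits was the opposite, but the reference there was all regions of the list. GAGAG was found at 11 of 65 subunits (16.9%), at 9 of 20 L paralogues (45%) and at 29.8% of all coding genes, and CACGTG at 2 of 65 (3.08%), 1 of 20 (5%) and 4.23%. The median GC content of the promoters was 34.6% for the subunits, 33.7% for the L paralogues and 37.9% for all coding genes. The nuclear respiratory gene element was found in 0 of 90 member promoters and in 0.881% of all promoters. The search for CGATA was added after the sequences had been seen. A match is a description of the sequence only.

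The 20 L paralogues were SdhAL, SdhBL, SdhCL, ND-20L, ND-24L, ND-49L, ND-51L1, ND-51L2, ND-B14.5AL, UQCR-11L, UQCR-14L, UQCR-6.4L, COX4L, COX5BL, COX7AL, COX7AL2, COX7CL, ATPsynCF6L, ATPsynGL and ATPsynbetaL. They had 0 summits in the list between replicates (exact interval 0 to 16.8%), against 20.5% of all coding genes. Of their 18 namesakes 10 had one (55.6%, 30.8 to 78.5). In the ranked list, each L paralogue had a region within 1 kb, with signals of the strongest from 22.1 to 138 and a median of 35.6, against 91.7 for the 15 namesakes with one and 44.8 for all coding genes with one. Of 17 pairs with a value for both genes, the namesake was higher in 15. In the other pairs, those of ND-49L, UQCR-11L and ATPsynbetaL, only the paralogue had a ranked region in this list. Their namesakes are therefore left out of the median of 91.7, while the median of 35.6 holds all 20 paralogues. COX7A counted for both of its paralogues. UQCR-14L had 33.3 and UQCR-14 had 346. ATPsynCF6L had 23.4 and ATPsynCF6 had 206. COX7AL had 22.1, COX7AL2 had 138 and COX7A had 168. ND-20L (44.6) and SdhBL (72.1) were above ND-20 (36.0) and SdhB (54.6). The SdhBL region in the pooled list (72.1) and in replicate 1 (60.1) lay at -757 from its start and 53 bp from the start of Flacc. The L paralogues were nested in another coding gene for 9 of 20 (45%), against 3.08% of subunits and 13.4% of all coding genes.

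**Figure D4:**
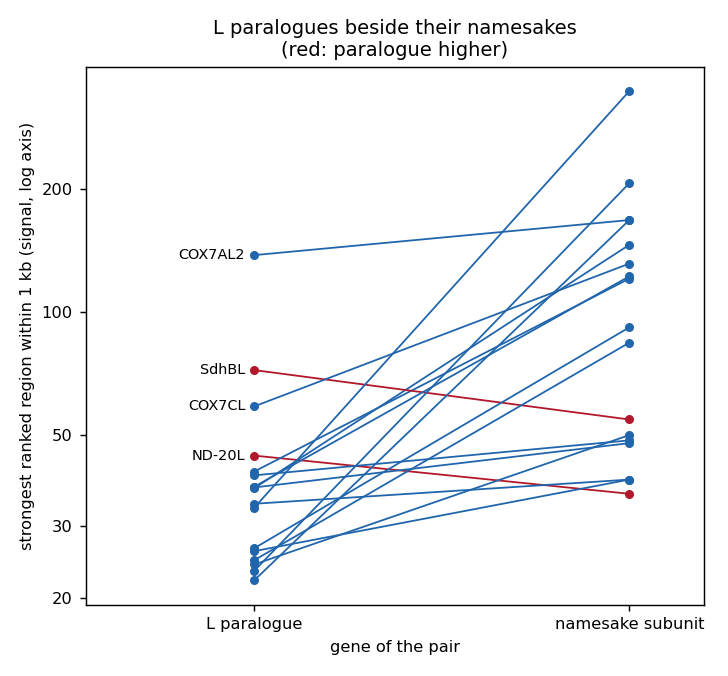
Signal of the strongest ranked region within 1 kb of a start (log axis), for each L paralogue on the left and its namesake on the right, joined by a line, for the 17 pairs with both values. Blue lines climb towards the namesake in 15 pairs, and red lines mark ND-20L and SdhBL, which were above theirs.

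By complex, the strongest ranked region of the subunits had a median signal of 127 in complex IV, 77.3 in complex V, 65.3 in complex III and 51.8 in complexes I and II, against 44.8 for all coding genes. Of the members 5 had no ranked region within 1 kb, ND-49, ND-MLRQ, UQCR-11, COX6CL and ATPsynbeta. Some members had ranked regions past the IDR limit of the thresholded list that were not in any thresholded list. COX7AL2 had 4 such regions, the highest at chr2L:2193454-2193749 with a signal of 138 and a -log10 IDR of 3.13, and ATPsynC had 2, the highest at chr3R:31219372-31219667 with a signal of 107 and a -log10 IDR of 2.67. Of the ranked regions at this limit, 142 of 2894 are absent from the thresholded list. The deposited records give the thresholded lists an additional source that is not described, and its part in these absences was not tested.

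**Figure D5:**
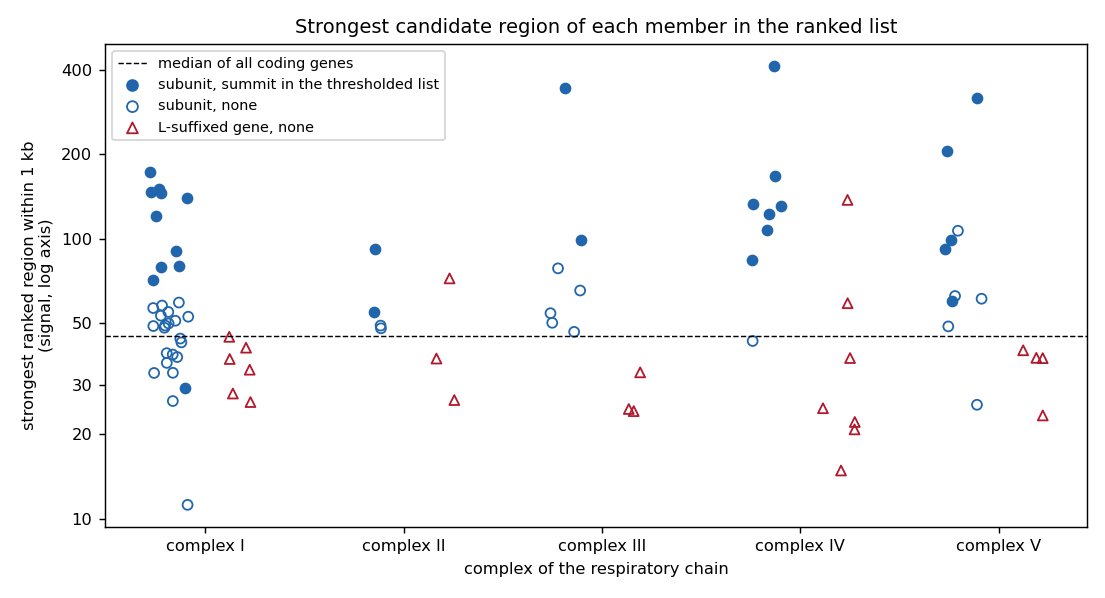
Signal of the strongest ranked region within 1 kb of a start, on a log axis, 1 point for each member of each complex that has one, without Sdhaf3. Circles are subunits without an L suffix (filled where they have a summit in the thresholded list), triangles are L-suffixed genes, and the dashed line is the median of all coding genes (44.8). The complex IV subunits other than COX5A lie above the line, and most triangles lie below it.

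Genes related to the members were counted in the same way, and the exact intervals of the 4 pathway lists all held the 20.5% of all coding genes. Of 20 genes of the tricarboxylic acid cycle and pyruvate dehydrogenase, 5 had a summit (25%), with Scsalpha1 of succinyl-CoA synthetase at 440, Ogdh at 216, ScsbetaA at 175, Mdh2 at 132 (nearer to CG7168) and muc, which encodes the pyruvate dehydrogenase E2 subunit, at 96.1. Of 17 genes of electron carriers, coenzyme Q and assembly, 3 did (17.6%), including Cyt-c-p, the main cytochrome c gene, at 79.2. A list of 15 genes held regulators of respiratory genes together with genes of mitochondrial DNA maintenance and mitochondrial quality control. Of these 3 did (20%), among them mtSSB at 174, the mitochondrial single-stranded DNA-binding protein, and srl, the PGC-1 homologue, at 58.1. Of 15 glycolysis genes 2 did (13.3%), Hex-A (85.9) and Ldh (60.2). A set of 5 subunit genes under other symbols was added after the members had been listed. Of these 3 had a summit (60%, exact interval 14.7 to 94.7, which also held 20.5%). They were levy (cytochrome c oxidase subunit) at 356, cype at 171 and blw (ATP synthase alpha) at 96.9, while sun and ox had none. The levy summit was nearer to wmd.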

How the data were processed

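Regions were taken from the 8 lists made for 2 biological replicates, for their pooled reads and for the comparison between them. Signal values are the authors', on dm6 per the labels, and were ranked within a deposited list; values from the lists of the 2 replicates are set side by side on scales that were not matched. The deposited ranked lists also give the −log10 of the IDR, and in the list between replicates the lowest value kept was just above 2, an IDR of 0.01. The names of the aligner and the caller were not given in the sources used here. Since no counts are in the files, the depth per sample is unknown.

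A summit counted for a gene within 1 kb of any start in the Ensembl annotation. Python 3.11.15 with numpy 2.4.6, pandas 2.3.3, scipy 1.17.1 and matplotlib 3.10.9 were used. Region matches between lists needed an overlap of at least 1 bp. Functions were tested on simulated data. Members and lists were chosen with earlier results of these data known, so shares have exact Clopper-Pearson 95% intervals beside those of all coding genes and no test. Members named are those with a summit, each L paralogue, and the namesakes other than ND-51, ATPsynG and UQCR-6.4. Also named are the 5 members without a summit whose nearest ranked region has the highest signal. Other names were picked with values in view. Settings also tried were the windows of 500 bp and 2 kb, nearest or most upstream start only, the pooled list, the ranked lists at IDR 0.05 and 0.01, regions above the median signal, each replicate alone, and the class of the 4 further L-suffixed genes; the last and the IDR of 0.01 were chosen after seeing the data. Promoters were read from the RefSeq genome, since no promoter table was used. The set of 5 subunit genes under other symbols was also added after the members had been listed. The symbols Dlst and ecsit were not matched.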

Additional observations from a re-analysis of the deposited data

How the results depend on the processing

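Members with a summit numbered 41 in the ranked list at IDR 0.05 and 15 among regions above the median signal (subunits that are not L paralogues likewise 15). Above the median signal, where 12% of all coding genes had a summit, complexes I, II, III and V kept 6, 0, 1 and 2 members, against 11, 2, 2 and 5. The pooled list, in which 27.3% of all coding genes had a summit, gave 4 of 11 members in complex III (36.4%) and 8 of 15 in complex V (53.3%). In complex I it gave 11 of 40 (27.5%), near the share of all coding genes. At IDR 0.05, where 31.4% of all coding genes had a summit, complexes III and V had 5 and 8. The window of 2 kb, in which 24.5% of all coding genes had a summit, gave 4 in complex III. L paralogues numbered 1 in the pooled list and in the ranked list at IDR 0.01, and 3 with the 2 kb window and at IDR 0.05. Given to the nearest start only, complex IV had 2 members and the ratio of the members' median signal to that of the list was 0.893, against 1.18. Over the lists of each replicate alone the values ran from 17 to 29 for members, 17 to 28 for subunits, 6 to 10, 1 to 2, 3 to 3, 3 to 7 and 4 to 7 for complexes I to V, 0 to 1 for L paralogues and 0.884 to 1.18 for the ratio. The cause of these shifts was not tested. The other 60 values stayed within 1.5 times the main count or, for the ratio, within the SD of the replicates. No paired analysis was possible because the series has 1 group. With no counts, depth could not be set against any of these values, and no control list was analysed.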
